A study of Mus musculus with 6 samples.

Results

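The abundance of mRNAs for 10 regulators of alternative splicing was followed through differentiation of mouse erythroleukemia (MEL) cells. The regulators were the polypyrimidine tract-binding proteins Ptbp1, Ptbp2 and Ptbp3, the RBFOX protein Rbfox2, the muscleblind-like proteins Mbnl1, Mbnl2 and Mbnl3, the erythroid splicing factor Rbm38, and the CELF proteins Celf1 and Celf2. They were picked by name as splicing regulators, with earlier results of these data known. They are 10 of the 23896 genes with a symbol in these data. For each gene the RefSeq transcript with the highest mean read count over the libraries stands for the gene, and all 10 passed the filter on low counts, with 248 to 24776 reads per library.

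MEL cells are a virus-transformed mouse line arrested at an early erythroid stage. All 6 libraries came from this line grown in the same medium, with no transgene or deletion named in the labels. Cells taken at day 0 were uninduced, and cells taken at day 2 and day 4 had been kept in 2% DMSO, a solvent that releases the line into terminal erythroid differentiation. Poly(A)-selected mRNA was sequenced from 2 biological replicates (cultures) per day. No DMSO-free culture of day 2 or day 4 was analysed here, so time in culture and DMSO cannot be told apart, and one line limits how far the values stand for erythroid cells in an animal.

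These proteins bind short RNA motifs near exons and decide whether an exon is kept or skipped. PTBP1 binds pyrimidine-rich RNA and mostly represses exons, and it holds back its paralog PTBP2 by causing an exon of the Ptbp2 mRNA to be skipped, which sends that mRNA to nonsense-mediated decay. The exchange of PTBP1 for PTBP2 is best known from developing neurons. RBFOX proteins bind GCAUG and MBNL proteins bind YGCY motifs, and both act by position, repressing exons from upstream and activating them from downstream. CELF proteins bind GU-rich RNA and often oppose MBNL on the same exon. In late erythroid cells RBFOX2, MBNL1 and RBM38 are known for acting on exons such as the spectrin-actin binding exon of Epb41, a gene of the red cell membrane skeleton.

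The exons shown here, taken from GENCODE transcripts of GRCm38 (mm10), are ones that these proteins are known to regulate. The Ptbp1 exon (chr10:79862014-79862047, plus strand) is the one that PTBP1 skips in its own mRNA, and the Ptbp2 exon (chr3:119724612-119724645, minus strand) is the one PTBP1 skips in that of its paralog. Each is a coding exon of 34 bases, and capitals mark the bases at which they differ.

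Ptbp1 autoregulated exon: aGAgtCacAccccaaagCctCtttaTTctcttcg

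Ptbp2 exon repressed by PTBP1: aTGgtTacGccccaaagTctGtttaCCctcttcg

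The paired exons shared 26 of 34 bases (76.5% identity), and 64.7% of the bases of each were pyrimidines. The Mbnl1 exon (chr3:60614683-60614736, plus strand, 54 bases) encodes part of the nuclear localisation signal and is skipped when MBNL1 acts on its own mRNA. The Epb41 exon (chr4:131962924-131962986, minus strand, 63 bases) encodes part of the spectrin-actin binding domain. Each is annotated in 1 transcript of its gene among the 6 for Mbnl1 and the 3 for Epb41 that matched RefSeq.

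Mbnl1 nuclear localisation exon: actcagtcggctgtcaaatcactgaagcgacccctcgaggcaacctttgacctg

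Epb41 spectrin-actin binding exon: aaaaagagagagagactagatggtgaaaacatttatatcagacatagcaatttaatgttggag

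The deposited counts do not measure whether these exons were kept. RefSeq lists 37 transcripts for the 10 genes, and reads on exons shared by several transcripts were counted for more than one of them: 19 of the 27 transcripts that did not lead had at least 95% of the leading transcript's count in every library. The lowest share belonged to the Rbfox2 transcript NM_001286417, at 67.5% to 73.3%. What follows is therefore mRNA abundance summed over splice forms, and it says nothing of protein.

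Summed counts per library on RefSeq transcripts ranged from 35294930 to 53899476. Reads on no feature made up 50.5% to 58.4% of the total of these counts and the no-feature reads. Reads on shared exons enter that total more than once, so the percentage is not a share of reads. Levels are given as CPM, counts scaled to the library size after trimmed mean of M-values (TMM) scaling. The summed CPM of 9 erythroid markers ran from 1007 to 1053 at day 0, from 4236 to 5034 at day 2 and from 17522 to 19620 at day 4, while lymphoid markers summed to at most 0.172 and all 3 of them had at most 15 reads in every library. Of the 5 myeloid markers measured, 3 had at most 15 reads in every library, and the list summed to between 6.33 and 6.45 at day 0, 1.39 and 1.40 at day 2, and 2.03 and 2.58 at day 4. The 3 megakaryocyte markers summed to between 268 and 271 at day 0, 211 and 233 at day 2, and 543 and 617 at day 4, and the 3 stromal markers to at most 2.94. The megakaryocyte sum was mostly Itga2b, which went from 209 and 227 CPM at day 0 to 531 and 606 at day 4. Pf4 went the other way, from 57.4 and 42.6 to 10.2 and 8.93, and Gp9 had 1.52 and 1.09 at day 0 and 1.94 and 2.14 at day 4. The part of these shifts in the results below was not tested.

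Changes were tested with edgeR's quasi-likelihood test over all 18351 transcripts that passed the filter, and a change is called at a Benjamini-Hochberg adjusted p (FDR) below 0.05. The 3 comparisons share libraries and are not independent of each other. A large share of the transcriptome moved, and the share called among all tested transcripts is the yardstick for the regulators. It is a rough one, since a gene can enter it with several transcripts that share reads, while each regulator counts once. From day 0 to day 2, 6 of the 10 were called, 3 higher and 3 lower, against 63.4% of all tested transcripts (31.9% higher and 31.6% lower). From day 2 to day 4, 5 were called, 3 higher and 2 lower, against 31.0% (14.6% higher and 16.4% lower). Day 4 against day 0 gave 8 calls, 4 in each direction, against 72.3% (36.2% higher and 36.1% lower). The median log2 fold changes of the 10 were -0.15, -0.08 and 0.13, beside 0.02, -0.00 and -0.00 over all tested transcripts. The counts are near the background in the first and last comparison. Calls that also reached 1 on the log2 scale in either direction numbered 3, 1 and 4 among the 10, against 22.9%, 5.90% and 35.1% of all tested transcripts. In each comparison 9 of the 10 had libraries of one day that did not overlap those of the other, which was also the case for 81.2%, 74.5% and 85.3% of all tested transcripts and so says little about the regulators.

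**Figure D1:**
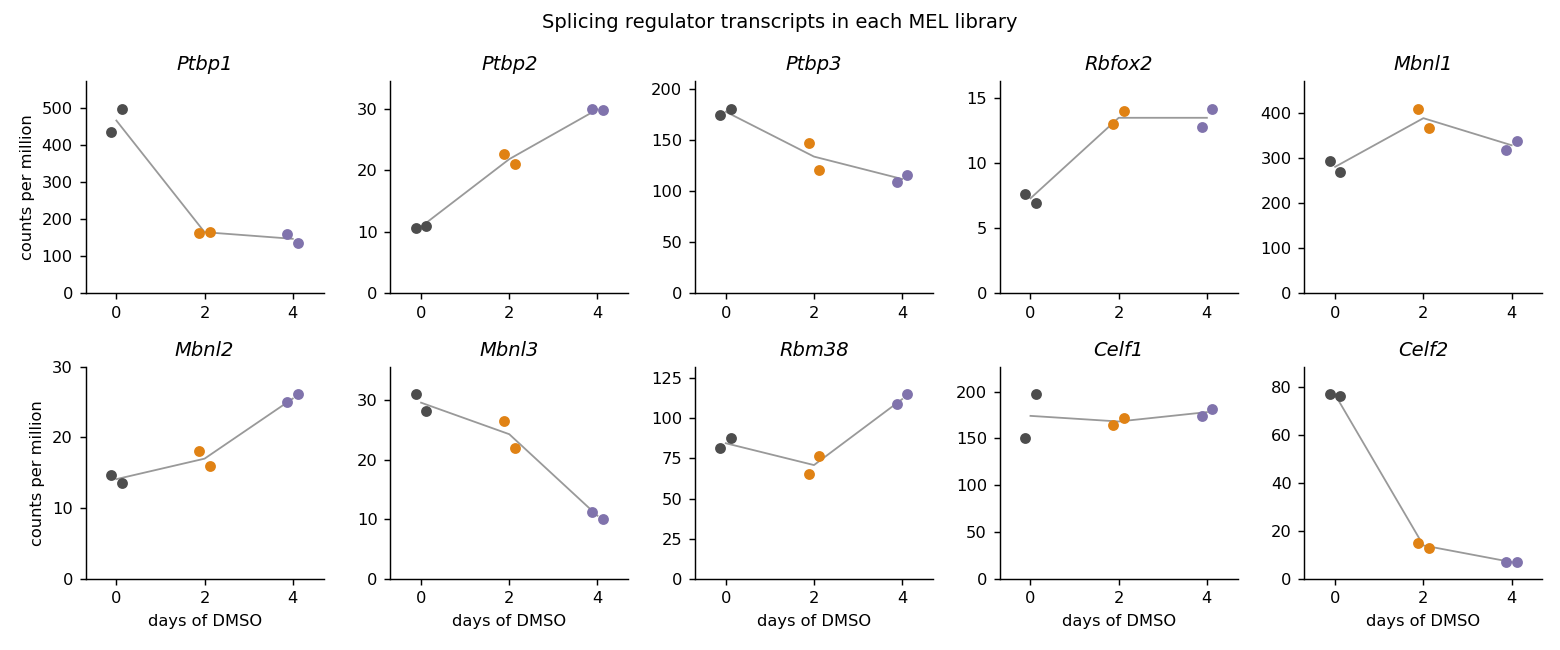
CPM of each regulator in each of the 6 MEL libraries, against days of DMSO. Points are single libraries, 2 per day, and the line joins the daily means. Ptbp1 and Celf2 had dropped by day 2, Ptbp2 and Mbnl2 were highest at day 4, and Celf1 stayed between 149.9 and 197.

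**Figure D2:**
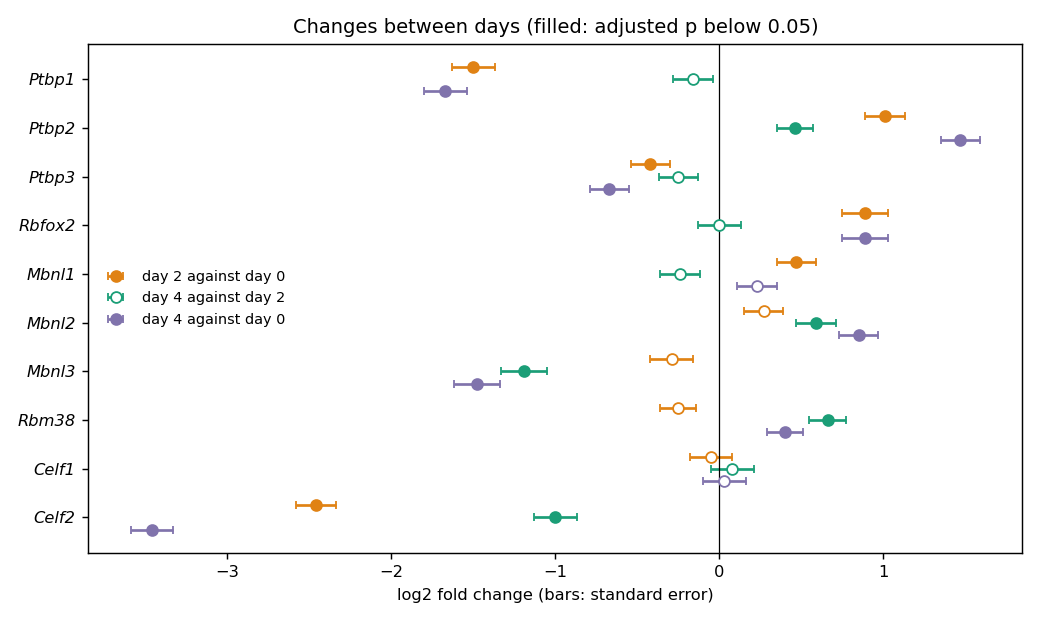
Log2 fold change of each regulator between days, with its standard error as bars. Filled symbols are changes at an adjusted p below 0.05 and open symbols did not pass. Celf2 moved furthest, by -3.46 from day 0 to day 4, and no symbol of Celf1 is filled.

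Among the PTB genes, Ptbp1 and Ptbp3 fell and Ptbp2 rose. A link between these changes was not tested. Ptbp1 (chr10:79854432-79864435) stood at 435 and 499 CPM in the day 0 libraries, 163 and 166 at day 2, and 159 and 135 at day 4. Both induced days lay far below day 0, and they lay close to each other. Ptbp1 was 2.84-fold lower at day 2 (log2 fold change -1.50 ± 0.13 (SE, n = 2 per day), adjusted p = 3.22e-06 by edgeR) and 3.18-fold lower at day 4 (-1.67 ± 0.13, adjusted p = 7.14e-07). The step from day 2 to day 4 was not called (-0.16 ± 0.12, adjusted p = 0.337). In bulk RNA of this kind, fewer cells that carry an mRNA and less of it per cell cannot be told apart.

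Ptbp2 (chr3:119718741-119784647) had 10.6 and 11.0 CPM at day 0, 22.7 and 21.0 at day 2, and 30.0 and 29.8 at day 4. The 3 days did not overlap and rose in order. The rise was 2.02-fold by day 2 (log2 fold change 1.01 ± 0.12, edgeR adjusted p = 3.07e-05) and 2.77-fold by day 4 (1.47 ± 0.12, adjusted p = 1.08e-06). The second step (0.46 ± 0.11, adjusted p = 0.0128) lost its call when any one of the 4 libraries of days 2 and 4 was left out, with adjusted p between 0.0603 and 0.130.

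Ptbp3, the paralog also named regulator of differentiation (chr4:59471868-59549378), had 175 and 181 CPM at day 0, 147 and 120.4 at day 2, and 109 and 116 at day 4. Each later day lay below the one before. The fall was 1.59-fold by day 4 (log2 fold change -0.67 ± 0.12, edgeR adjusted p = 0.000408). The first step (-0.42 ± 0.12, adjusted p = 0.00990) lost its call without day 2 replicate 2 (-0.28, adjusted p = 0.155) and when libraries were scaled by total counts alone (-0.22, adjusted p = 0.124), and the second, not called at -0.25 ± 0.12 (adjusted p = 0.136), passed in a fit of days 2 and 4 alone (-0.25, adjusted p = 0.0483).

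Within the PTB family, shares of counts per base of exon need no scaling between libraries. The count is that of the leading transcript, and the length is the union of exons over all RefSeq-matched transcripts of the gene. The level of a share depends on this choice of length. Ptbp1 made up 81.5% and 83.0% of the family at day 0, 62.8% and 67.0% at day 2, and 65.0% and 60.4% at day 4. Ptbp2 went from 2.04% and 1.87% to 8.95% and 8.68%, and then to 12.6% and 13.7%. The ratio of Ptbp1 to Ptbp2 was accordingly 39.9 and 44.3 at day 0, 7.02 and 7.71 at day 2, and 5.15 and 4.42 at day 4, so Ptbp1 mRNA remained the more abundant of the pair on every day. Ptbp3 held 16.4% and 15.1% at day 0 and between 22.4% and 28.2% afterwards, a larger share although its own level had fallen.

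**Figure D3:**
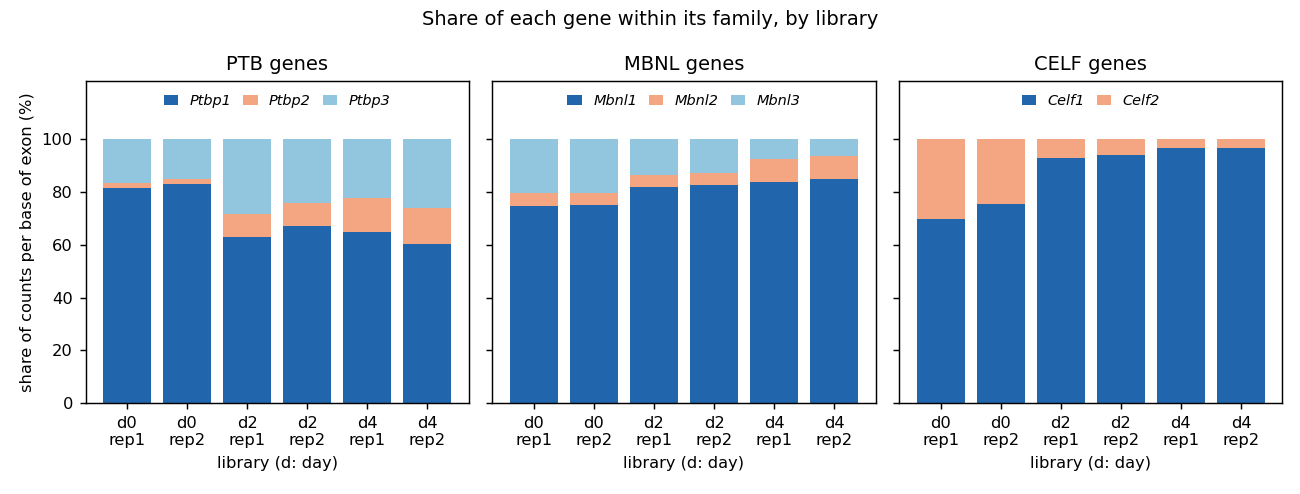
Share of counts per base of exon that each gene holds within its set, in percent, for each library (d, day). The sets are Ptbp1 to Ptbp3, Mbnl1 to Mbnl3, and Celf1 with Celf2, leaving out the other CELF genes. Each bar adds to 100. Ptbp2, Mbnl1 and Celf1 took larger shares at day 4 than at day 0, and Mbnl3 and Celf2 smaller ones.

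Rbfox2 (chr15:77078990-77308434) was the only RBFOX gene with reads to test, since Rbfox1 had 2 reads over all libraries and Rbfox3 had 0. It had 7.65 and 6.95 CPM at day 0, 13.0 and 14.0 at day 2, and 12.8 and 14.2 at day 4. Day 0 lay below the induced days, which overlapped each other. Rbfox2 was 1.85-fold higher at day 2 (log2 fold change 0.89 ± 0.14, edgeR adjusted p = 0.000215) and at day 4 (0.89 ± 0.14, adjusted p = 0.000145). From day 2 to day 4 the estimate was -0.00 ± 0.13 (95% interval -0.30 to 0.29, adjusted p = 0.985).

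Each MBNL gene took its own course. Mbnl1 (chr3:60472559-60629750), the most abundant of them, had 292 and 268 CPM at day 0, 409 and 367 at day 2, and 317 and 338 at day 4. It was highest at day 2, and the days did not overlap. The rise to day 2 was 1.38-fold (log2 fold change 0.47 ± 0.12, edgeR adjusted p = 0.00489) and was not called without day 2 replicate 1 (0.39, adjusted p = 0.0731). Its difference from day 0 to day 4 was not called (0.23 ± 0.12, 95% interval -0.03 to 0.48, adjusted p = 0.105), but was with total-count scaling (0.34, adjusted p = 0.0238) and without day 0 replicate 1 (0.28, adjusted p = 0.0371). The step from day 2 to day 4 was -0.24 ± 0.12 (adjusted p = 0.137) in the fit of all days and was called at -0.25 when day 0 was left out of the fit (adjusted p = 0.0384), or when either day 0 library was (adjusted p = 0.0393 and 0.0398).

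Mbnl2 (chr14:120275652-120431698) had 14.7 and 13.6 CPM at day 0, 18.1 and 16.0 at day 2, and 25.0 and 26.1 at day 4. Day 4 stood apart from both earlier days. It was 1.81-fold higher at day 4 than at day 0 (log2 fold change 0.85 ± 0.12, edgeR adjusted p = 8.61e-05), with a rise of 0.59 ± 0.12 from day 2 (adjusted p = 0.00538). That step was not called without day 2 replicate 2 (0.50, adjusted p = 0.0806) or day 4 replicate 2 (0.55, adjusted p = 0.0507), and the first step, not called at 0.27 ± 0.12 (adjusted p = 0.0788), passed without day 0 replicate 1 (0.32, adjusted p = 0.0430) and with total-count scaling (0.47, adjusted p = 0.00728).

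Mbnl3 (chrX:51113494-51205990), known as a muscleblind protein that holds back muscle differentiation, had 31.0 and 28.2 CPM at day 0, 26.6 and 21.9 at day 2, and 11.2 and 10.0 at day 4. The drop lay between day 2 and day 4. It fell 2.28-fold in that step (log2 fold change -1.19 ± 0.14, edgeR adjusted p = 0.000294) and 2.79-fold from day 0 to day 4 (-1.48 ± 0.14, adjusted p = 3.37e-06). The first step was -0.29 ± 0.13 (adjusted p = 0.0820), and among the alternatives run it was called only without day 0 replicate 2 (-0.36, adjusted p = 0.0323).

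Mbnl1 made up 74.7% and 74.9% of MBNL counts per base of exon at day 0 and 83.9% and 85.1% at day 4. By this measure Mbnl3 and Mbnl2 changed places as the second member, though their close order at day 4 depends on the exon lengths used. The ratio of Mbnl3 to Mbnl2 was 4.29 and 4.21 at day 0, 2.99 and 2.78 at day 2, and 0.911 and 0.780 at day 4.

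Rbm38 (chr2:173021891-173034734), a p53 target that binds mRNAs such as that of Cdkn1a and promotes exon inclusion late in erythroid differentiation, had 81.5 and 87.5 CPM at day 0, 65.1 and 76.6 at day 2, and 109 and 115 at day 4. It was lowest at day 2 and highest at day 4. From day 2 to day 4 it rose 1.58-fold (log2 fold change 0.66 ± 0.11, edgeR adjusted p = 0.00186), and from day 0 to day 4 by 1.32-fold (0.40 ± 0.11, adjusted p = 0.00688). The first call was lost without day 2 replicate 1 (0.54, adjusted p = 0.0569) and the second without day 4 replicate 2 (0.36, adjusted p = 0.0572). The difference between day 2 and day 0 was not called (-0.25 ± 0.11, adjusted p = 0.0677), but was with relative log expression scaling (-0.28, adjusted p = 0.0458), with the replicate number as a block (-0.26, adjusted p = 0.0487) and without day 0 replicate 1 (-0.30, adjusted p = 0.0278).

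The CELF genes diverged. Celf2 (chr2:6539694-7396341) had 76.9 and 76.4 CPM at day 0, 14.9 and 12.9 at day 2, and 6.87 and 7.07 at day 4. Every day lay well below the one before. It fell 5.50-fold by day 2 (log2 fold change -2.46 ± 0.12, edgeR adjusted p = 1.34e-07), a further 2.00-fold by day 4 (-1.00 ± 0.13, adjusted p = 0.000416), and 11.0-fold in all (-3.46 ± 0.13, adjusted p = 9.69e-09).

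Celf1 (chr2:90940259-91019497), which also promotes decay of mRNAs with GU-rich elements, had 149.9 and 197 CPM at day 0, 164 and 172 at day 2, and 174 and 181 at day 4. The day 0 libraries spanned those of the other days. No step was called, with log2 fold changes of -0.05 ± 0.13 to day 2 (95% interval -0.34 to 0.25, edgeR adjusted p = 0.763), 0.08 ± 0.13 from there to day 4 (-0.21 to 0.38, adjusted p = 0.673), and 0.03 ± 0.13 overall (-0.26 to 0.33, adjusted p = 0.833). The sign of these small values turned under some settings. Celf1 to Celf2 ratios per base of exon were 2.31 and 3.06 at day 0, 13.0 and 15.7 at day 2, and 30.1 and 30.4 at day 4.

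Levels of different genes can be ordered only per length of exon. The lengths are the same exon unions as above, and the order of genes with close values depends on them. At day 0, in CPM per kilobase, Ptbp1 led with a mean of 135 ± 13.1 (SD, n = 2), followed by Mbnl1 (48.3), Rbm38 (47.8), Ptbp3 (25.9), Celf1 (21.8), Mbnl3 (13.2), Celf2 (8.12), Ptbp2 (3.21), Mbnl2 (3.10) and Rbfox2 (1.01). Libraries of Mbnl1 and Rbm38 overlapped, as did those of Ptbp2 and Mbnl2. At day 4, Rbm38 stood first at 63.3 ± 2.51, then Mbnl1 (56.4), Ptbp1 (42.6), Celf1 (22.3), Ptbp3 (16.3), Ptbp2 (8.90), Mbnl2 (5.61), Mbnl3 (4.74), Rbfox2 (1.86) and Celf2 (0.738). No neighbours in that order overlapped. Ptbp1 thus lost the lead to Rbm38 and Mbnl1, and Celf2 moved from above Ptbp2 to last place.

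Antisense or other opposite-strand genes overlap annotated exons of Ptbp1, Ptbp3, Mbnl2, Rbm38 and Celf2, by 31 to 437 bases per gene pair. The kit keeps strand, but the strand setting of the counting is not given in the sources used here, so reads from such partners cannot be told apart from those of the regulators. Rbfox2, Ptbp2, Mbnl1, Mbnl3 and Celf1 have no such overlap.

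Promoter windows from RefSeq (GRCm38.p6, from 250 bases before to 50 after a start) were found for 8 of the 10 genes, in 13 windows, with none for Ptbp3 and Rbfox2. They were searched on both strands for an erythroid GATA motif (AGATAA), an E-box (CACGTG) and a CACCC-type box (CCNCNCCC). The windows of the 2 genes with the largest fall are shown, with matches in capitals. For Ptbp1 it is chr10:79854182-79854481 (plus strand), with an E-box and overlapping CACCC matches.

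Ptbp1 promoter: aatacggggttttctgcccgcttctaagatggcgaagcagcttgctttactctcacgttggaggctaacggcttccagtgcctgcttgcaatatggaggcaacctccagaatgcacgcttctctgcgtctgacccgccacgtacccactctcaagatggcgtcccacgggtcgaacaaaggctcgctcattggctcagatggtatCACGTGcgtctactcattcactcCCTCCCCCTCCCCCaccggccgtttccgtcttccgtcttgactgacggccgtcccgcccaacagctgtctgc

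For Celf2, which has several windows, it is the one at chr2:7396149-7396448 (minus strand). It covers the upstream end of the gene span given above and is the only member window with AGATAA, so the other Celf2 windows have none. Which Celf2 start is used in these cells was not measured.

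Celf2 promoter: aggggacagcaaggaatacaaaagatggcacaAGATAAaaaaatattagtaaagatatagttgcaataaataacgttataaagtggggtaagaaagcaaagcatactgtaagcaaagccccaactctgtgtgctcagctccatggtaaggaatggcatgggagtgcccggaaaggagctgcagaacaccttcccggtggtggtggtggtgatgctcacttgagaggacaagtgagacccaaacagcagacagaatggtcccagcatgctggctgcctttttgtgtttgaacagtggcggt

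Over all 13 windows, 1 held AGATAA, 2 held the E-box (Ptbp1 and Mbnl1) and 10 held the CACCC-type letters, with at least 1 such window in each of the 8 genes. Among 32851 RefSeq promoter windows of the same length, 11.2%, 7.2% and 49.5% held these motifs. A match describes the letters and is not evidence of a bound factor.

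Other genes of these families were mostly silent. Of 7 listed, only Celf4 and Celf5 had enough reads to test, and both rose by day 2. Celf4 had 10.9 and 13.4 CPM at day 0, 31.4 and 26.4 at day 2, and 33.5 and 33.7 at day 4 (log2 fold change 1.47 ± 0.14 from day 0 to day 4, edgeR adjusted p = 3.76e-06). The other 5 had between 0 and 36 reads over all libraries.

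Most genes for partner proteins, which bind RNA together with PTBP1 or RBFOX, were lower at day 4. Of 8 tested of 9 listed, 5 fell and 1 rose by day 2, 1 fell and 2 rose from day 2 to day 4, and 7 fell and 1 rose from day 0 to day 4, with a median log2 fold change of -0.52, -0.17 and -0.55. Among all tested transcripts 63.4%, 31.0% and 72.3% were called in either direction, and 31.6%, 16.4% and 36.1% were called lower. Hnrnpm, a subunit of the large RBFOX assembly, had 557 and 776 CPM at day 0, 255 and 277 at day 2, and 236 and 226 at day 4 (-1.53 ± 0.16 from day 0 to day 4, edgeR adjusted p = 5.70e-06). Hnrnpc, which binds uridine tracts, was at 257 and 309.6 at day 0 and 125 and 118 at day 4 (-1.22 ± 0.12, adjusted p = 5.26e-06). Ddx5, an RNA helicase, was the one that rose, from 419 and 323 CPM to 616 and 681 (0.80 ± 0.14, adjusted p = 0.000359).

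Among 21 other genes listed as regulated splicing factors, 14 were tested. From day 0 to day 4, 8 rose, 5 fell and 1 was not called, with a median of 0.49, where 72.3% of all tested transcripts were called. By day 2, 6 had risen and 4 had fallen (63.4% of all called), with a median of 0.27. The second step gave 1 call in each direction, 2 of 14 where 31.0% of all were called, with a median of 0.10. Rbm20, known for titin splicing in heart muscle, fell from 8.53 and 9.21 CPM to 0.693 and 0.685 (log2 fold change -3.68 ± 0.24, edgeR adjusted p = 2.25e-07). Hnrnpll, a regulator of CD45 exons in lymphocytes, had 92.2 and 183 at day 0, an unequal pair, and 57.4 and 53.9 at day 4 (-1.31 ± 0.24, adjusted p = 0.000434). The musashi genes rose together, Msi1 by 1.23 ± 0.23 (adjusted p = 0.000558) and Msi2 by 1.17 ± 0.13 (adjusted p = 1.15e-05). The remaining 7 had at most 30 reads over all libraries.

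**Figure D4:**
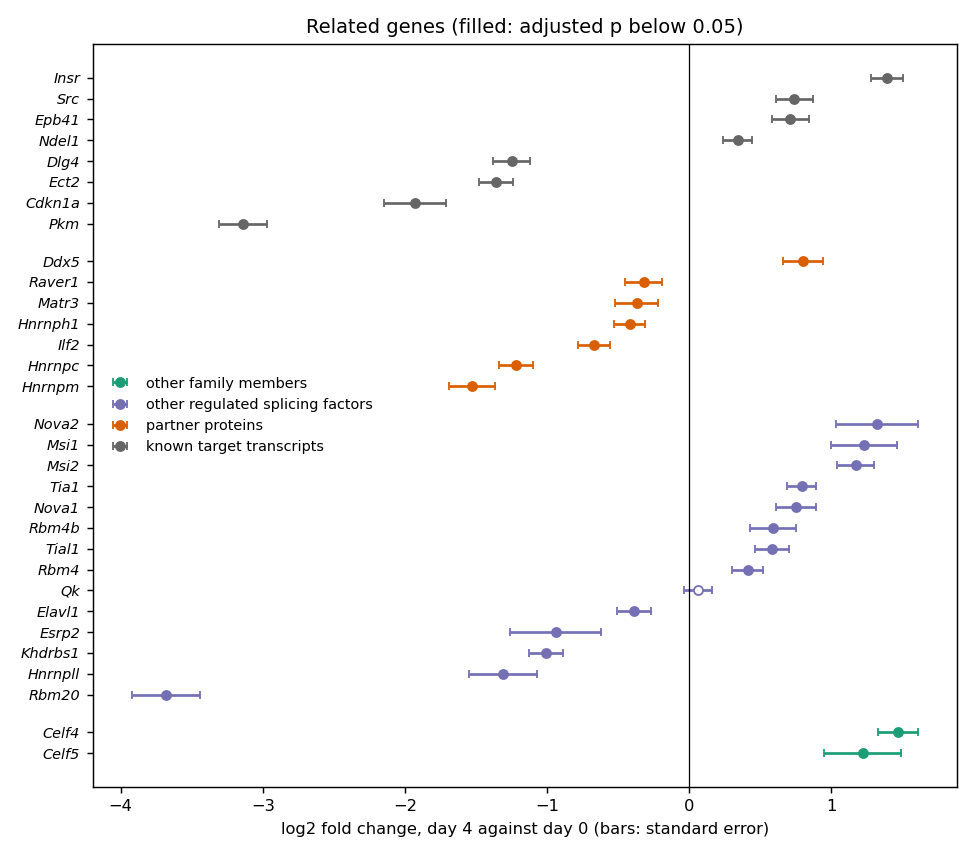
Log2 fold change from day 0 to day 4, with its standard error, of the related genes that were tested, by list, leaving out 1 that is not reported here. Filled symbols passed an adjusted p of 0.05. Ddx5 is the partner protein to the right of 0, and Qk is the single open symbol.

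Transcripts listed as known targets of these proteins, not all of them through a regulated exon, changed in both directions. All 8 listed were tested, 3 rose and 4 fell by day 2, 1 rose and 2 fell from day 2 to day 4, and 4 rose and 4 fell from day 0 to day 4, with medians of -0.35, 0.07 and -0.45. Among all tested transcripts 63.4%, 31.0% and 72.3% were called, in near equal numbers in each direction. Pkm, whose alternative exons for the muscle and embryonic pyruvate kinase forms are chosen with PTBP1, fell from 1489 and 1941 CPM at day 0 to 157 and 172 at day 2, and stood at 214 and 175 at day 4 (log2 fold change -3.14 ± 0.17 from day 0 to day 4, edgeR adjusted p = 7.63e-08). Epb41 had 330.0 and 411 at day 0, 347 and 360.0 at day 2, and 586 and 629 at day 4 (0.71 ± 0.13, adjusted p = 0.000522). Only its second step was called (0.78 ± 0.13, adjusted p = 0.00182, against -0.07 ± 0.13, adjusted p = 0.674, in the first).

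Insr, whose receptor exon is regulated by MBNL1 and CELF1, rose from 30.2 and 31.2 CPM to 76.0 and 85.2 (log2 fold change 1.39 ± 0.11, edgeR adjusted p = 7.43e-07). Src, with a neuronal exon repressed by PTBP1, rose by 0.74 ± 0.13 (adjusted p = 0.000402), and Ndel1, with an exon regulated by MBNL1 in red cell precursors, by 0.34 ± 0.10 (adjusted p = 0.0122). The gene that PTB proteins hold down through decay in non-neuronal cells, Dlg4, went from 18.1 and 17.5 CPM at day 0 to 9.96 and 9.69 at day 2 and 6.98 and 7.93 at day 4 (-1.25 ± 0.13, adjusted p = 8.31e-06). Cdkn1a, a cell cycle inhibitor whose mRNA RBM38 binds, changed by -1.93 ± 0.22 (adjusted p = 1.13e-05), from 21.3 and 33.1 CPM to 6.07 and 8.11. Ect2, a gene needed for cytokinesis, changed by -1.36 ± 0.12 (adjusted p = 2.14e-06).

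For each regulator the nearest patterns over the 6 libraries were sought among 10444 genes, by the root mean square difference of log2 CPM after each gene was centred on its own mean. This is a description of shape with 6 points and no test. Nearest to Ptbp1 were Psmg4 (0.0322) and Aen (0.0422), and nearest to Ptbp2 were Dnajb4 (0.0420) and Nfat5 (0.0485). Ptbp3 was closest to Ube2e3 (0.0269) and Exoc6 (0.0404), and Rbfox2 to Nek9 (0.0335) and Fgfrl1 (0.0402). The regulators themselves were left out of the genes searched, so none could appear as the neighbour of another.

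The MBNL genes had the neighbours Agtpbp1 (0.0280) and Larp1b (0.0356) for Mbnl1, Idnk (0.0323) and Trim44 (0.0385) for Mbnl2, and Srl (0.0487) and Nxt2 (0.0765) for Mbnl3. Rbm38 lay nearest to Dynlt1c (0.0440) and Dynlt1f (0.0469), near-identical copies of one dynein light chain gene that may share reads. Celf1 lay nearest to Rtf1 (0.0294) and Cndp2 (0.0356). Celf2 had the most distant neighbours, Ggct (0.106) and She (0.107).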

How the data were processed

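Stranded, poly(A)-selected libraries were sequenced from 2 MEL cultures on each of days 0, 2 and 4 of 2% DMSO. The authors trimmed adapters with cutadapt, used TopHat for alignment to mm10, and the deposited values are unnormalized counts for each RefSeq transcript in each library. HTSeq is named in the submitters' processing notes, and its mode, strand setting and annotation release are not given in the sources used here. Reads on no feature (50.5% to 58.4% of the total of counts) were left out. Symbols for 32199 of 32654 transcripts came from RefSeq and for 187 from GENCODE, and 268 had none.

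Counts were tested with edgeR 4.0.16 (R 4.3.3), with TMM factors (0.921 to 1.07), filterByExpr by day, 1 quasi-likelihood fit over 6 libraries and Benjamini-Hochberg adjustment. Standard errors came from the F statistic. The fit was also run on simulated data in which few transcripts changed. That run does not probe scaling where a large share of transcripts moves, as here. The members and lists were chosen with earlier results of these data known. Named are all members, up to 4 called genes per list with the largest change from day 0 to day 4 at an average log2 CPM of at least 1, every known target tested, and the 2 nearest patterns per member. Celf5 and Qk fall outside this rule, and 1 gene the rule names is not reported here. Celf2 and Ptbp1 promoters, the 4 exons and the motifs were also chosen with values known.

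Alternatives were DESeq2 1.42.0, other scaling (relative log expression, total counts, globin transcripts left out), no filter, a fit restricted to 2 days, a replicate block, 1 transcript per gene, another transcript of each member that has more than 1, a required log2 fold change of 1, and leaving out each library. That other transcript had at least 99.0% of the leading transcript's count in every library, so it could hardly give a different result. The required log2 fold change was applied only to the numbers of calls. It is not part of the tally of single regulator values below.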

Additional observations from a re-analysis of the deposited data

How the results depend on the processing

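Of 441 values of single regulators under these alternatives, 410 kept their direction and their side of the threshold, 11 lost a call, 12 gained one and 8 turned sign, all 8 in values that were not called. Celf2 in each comparison, Ptbp1, Ptbp2 and Rbfox2 against day 0, Mbnl3 from day 2 to day 4 and from day 0, and Mbnl2 and Ptbp3 from day 0 to day 4 kept call and direction in every alternative that refits the values. When a change also had to reach 1 on the log2 scale, the calls left were Ptbp1, Ptbp2 and Celf2 by day 2, Mbnl3 from day 2 to day 4, and Ptbp1, Ptbp2, Mbnl3 and Celf2 from day 0 to day 4. Celf2 from day 2 to day 4, printed as -1.00, fell just short of this limit before rounding. The sign turned for Rbfox2 from day 2 to day 4 with DESeq2 (0.00), with relative log expression scaling (0.00), without day 2 replicate 2 (0.05) and without day 4 replicate 1 (0.06). The small Celf1 values reached -0.23 by day 2 without day 0 replicate 1 and 0.23 by day 4 without day 0 replicate 2, neither called. For Celf1 the sign turned from day 0 to day 2 with total counts (0.15) and without day 0 replicate 2 (0.15), from day 2 to day 4 with total counts (-0.00), and from day 0 to day 4 without day 0 replicate 1 (-0.16). Total-count scaling moved the median of all transcripts by day 2 to 0.22, in the second step to -0.09 and over the whole course to 0.11. The required log2 fold change of 1, in the main fit, left 3, 1 and 4 of the 6, 5 and 8 regulators called. It left 10, 1 and 15 of the 25, 8 and 31 listed genes called, and 4209, 1082 and 6450 of all 18351 transcripts. A fit of only days 2 and 4 called 17 listed genes and 8187 transcripts in all, where the fit of all days called 8 and 5684. Leaving out 1 library called 5 to 8, 3 to 6 and 7 to 9 regulators, and 20 to 25, 2 to 17 and 25 to 31 listed genes. From day 2 to day 4, leaving out day 2 replicate 1, day 2 replicate 2 or day 4 replicate 2 left 3 regulators called, and over all transcripts 1410, 2457 and 2228. For listed genes in that step, leaving out either day 0 library gave 17 calls, day 2 replicate 1 gave 2, day 2 replicate 2 gave 3, day 4 replicate 1 gave 5 and day 4 replicate 2 gave 2, and without either day 0 library or day 4 replicate 1 the calls over all transcripts were 8222, 8225 and 3963. Such fits leave a day with 1 library, which is assumed to vary like the others. The cause of these changes was not tested. Replicate numbers are shared between days, but differences between same-numbered libraries correlated at 0.032 to 0.079, so the numbers were not taken to pair cultures. With the replicate block, 7, 5 and 8 regulators and 25, 8 and 31 listed genes were called, and over all transcripts 11564, 5578 and 13246.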
